A study of Mus musculus with 32 samples.

Results

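Frontal cortex gene expression was compared between 12 mice that had received human gut microbiota and 8 mice that had received squirrel monkey gut microbiota. These 20 mice are part of a set of 32, of which the other 12 received macaque microbiota, and they were taken by the donor named in each sample's label. The tissue is the infralimbic and prelimbic cortex, the donors were Homo sapiens, Saimiri boliviensis and Macaca mulatta, and every mouse underwent inoculation. The sources used here do not give the strain, sex or age of the mice, the flora they carried before inoculation or the number of donors per species. Means are given ± SD over 12 human and 8 squirrel monkey mice, in that order, where no other n is stated. Replicate numbers were given to the mice here, in the order of their records, and pair no samples. The mouse is the unit of all tests except the alternative fit on counts summed per batch. In the comparison as reported, p-values set a difference against the spread between mice, with mice of a batch taken as independent.

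The batches named in the labels split each donor group: human mice came from batches A (4 mice) and B (8 mice), and squirrel monkey mice from batches C (4 mice) and D (4 mice). No batch held mice of both donor species. Library names also place the human libraries in plate columns 1 and 2 and the squirrel monkey libraries in column 3. Donor species, batch and plate column cannot be told apart in any fit, so each difference between donors below is also a difference between batches.

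Gut microbes are known to reach the brain through metabolites such as short-chain fatty acids and bile acids, through immune signals and through the vagus nerve. The prelimbic and infralimbic areas are medial prefrontal cortex, which takes part in the control of behaviour and of stress responses, and their neurons lie in layers that differ in the genes they express. The libraries were of the TagSeq kind, which reads a tag near the 3′ end of each transcript.

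The total was 1204598 to 2089308 counts in the human group and 1193113 to 1588716 in the squirrel monkey group, and the difference of the means had an exact permutation p of 0.0391 (two-sided; 0.167 after Benjamini-Hochberg adjustment over 6 library measures). Adjusted p was 0.167 to 0.339 for the other 5 library measures. Cortical markers were present in both groups, with Slc17a7 at 473 ± 53.6 CPM (library-scaled counts; SD, n = 12) and 400 ± 39.7 CPM (SD, n = 8), and Tbr1 at 151 ± 25.2 and 140 ± 33 CPM. Myelin genes varied widely among mice: the summed level of 32 oligodendrocyte and myelin genes ran from 1530 to 15406 CPM in the human group and from 1860 to 8064 CPM in the squirrel monkey group.

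Few genes differed between the donor groups, and the differences were small. Of 12651 genes that passed the count filter, 17 (0.134%) passed an adjusted p of 0.05 in edgeR's quasi-likelihood test. With human microbiota 2 genes were higher (0.0158%), the zinc finger gene Zfp771 and the endoplasmic reticulum gene Ei24. With human microbiota 15 genes were lower (0.119%), led in p by Spc24, a kinetochore gene, and Atrx, a chromatin remodeller. The absolute log2 fold change of the 17 genes lay between 0.23 and 0.57, with a median of 0.35, against a median of 0.0997 over all genes tested. In bulk tissue, fewer cells of a type and less RNA per cell cannot be told apart.

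Without adjustment, 1267 genes (10%) had p under 0.05, 663 of them higher and 604 lower with human microbiota. DESeq2 on the same genes called 97 (0.767%), 36 higher and 61 lower, and 15 of the 17 edgeR genes were among them. For the other two, Zfp771 among them, DESeq2 gave no adjusted p.

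**Figure D1:**
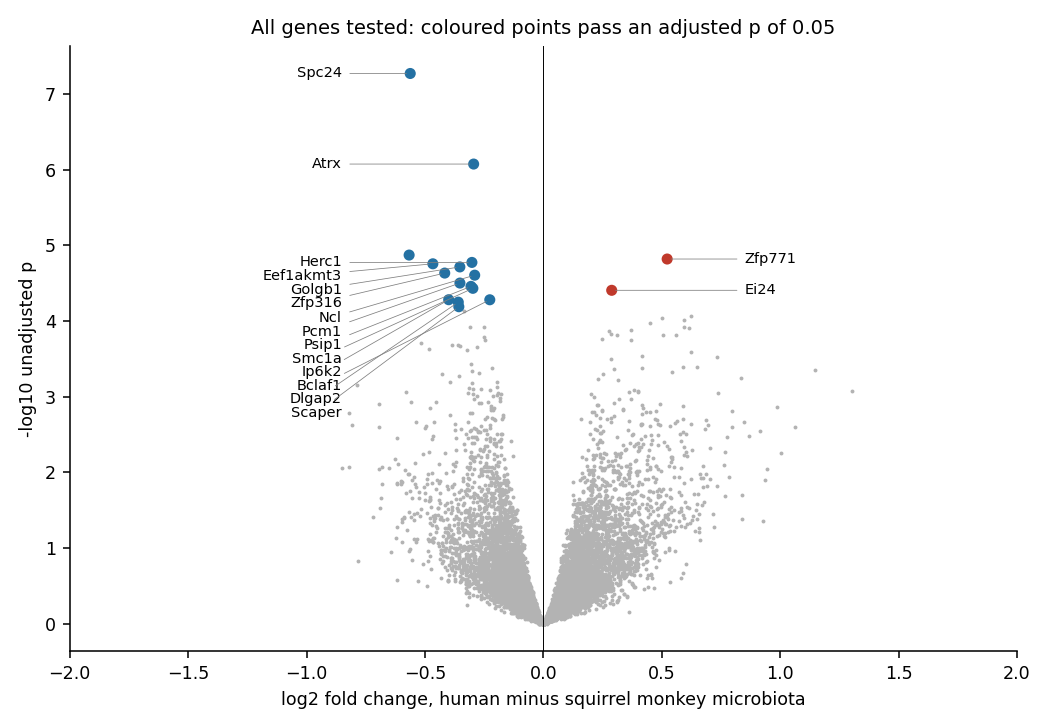
Each point is one of the 12651 genes tested, by log2 fold change (human minus squirrel monkey microbiota, x axis) and -log10 of the unadjusted p (y axis). The 17 coloured points, 16 of them named, pass the adjusted threshold: 2 higher (red) and 15 lower (blue) with human microbiota, with Spc24 and Atrx highest on the y axis.

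Zfp771 encodes a zinc finger protein. Its level ran from 27.6 through a median of 39.6 to 46.1 CPM in the human group and from 21.3 through 27.4 to 32.6 CPM in the squirrel monkey group. The groups overlapped in part: 9 of 12 human mice lay above the highest squirrel monkey mouse, and all 12 lay above the squirrel monkey median. The means were 39.1 ± 6.38 CPM (SD, n = 12) and 27.2 ± 4.10 CPM (SD, n = 8), a difference of 0.52 ± 0.11 (SE) in log2 terms (adjusted p = 0.0348, edgeR). The macaque group, with a mean of 25.9 ± 3.41 CPM (SD, n = 12), lay near the squirrel monkey group.

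Ei24 encodes an endoplasmic reticulum membrane protein that takes part in autophagy and is a known target of p53. It ran from 107 through a median of 127 to 148 CPM with human microbiota and from 87.9 through 103 to 118 CPM with squirrel monkey microbiota. Of the 12 human mice, 10 lay above the highest squirrel monkey mouse. The log2 fold change was 0.29 ± 0.06 (SE, adjusted p = 0.0382, edgeR), and the macaque mean was 96.9 ± 8.35 CPM (SD, n = 12).

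To complete the 10 genes on the higher side, 8 genes of next smallest p are given as values that did not pass. Fxr2, a paralogue of the fragile X RNA-binding protein, had a mean of 47.5 ± 11.3 CPM against 30.8 ± 5.66 CPM (log2 fold change 0.62 ± 0.14 SE, adjusted p = 0.0575, edgeR). The range of adjusted p over all 8 was 0.0575 to 0.0610. The others were Rcn1, a calcium-binding protein of the endoplasmic reticulum (log2 fold change 0.50), the adhesion receptor Adgrb2 (0.59), the Arp2/3 subunit Arpc4 (0.45), the glycosyltransferase Mgat5b (0.60), the kinase Stk32c (0.62), the mitochondrial gene Mtfr1l (0.37) and the synaptic vesicle gene Syngr1 (0.28). Mgat5b had a macaque mean of 43.8 ± 9.91 CPM (SD, n = 12), nearer to the human mean of 40.0 than to the squirrel monkey mean of 26.5 CPM. Within the squirrel monkey group, C minus D was 0.61 for Stk32c and 0.42 for Arpc4 on the log2 scale, near their donor differences. For the others of the 8, C minus D ran from -0.08 (Rcn1) to 0.25 (Fxr2), and none passed adjustment.

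Spc24 is a subunit of the NDC80 complex, which ties kinetochores to spindle microtubules in dividing cells. It ran from 58.4 through a median of 71.8 to 88.6 CPM with human microbiota and from 76.4 through 105 to 122 CPM with squirrel monkey microbiota. The ranges overlapped, but 7 of 12 human mice lay below the lowest squirrel monkey mouse and 7 of 8 squirrel monkey mice lay above the highest human mouse. The means of 71.5 ± 9.82 CPM (SD, n = 12) and 105 ± 16.2 CPM (SD, n = 8) differed by a log2 fold change of -0.56 ± 0.08 SE (edgeR adjusted p = 0.000678).

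The macaque group stood with the squirrel monkey group in Spc24, at 98.3 ± 9.22 CPM (SD, n = 12). In the fits that left out 1 of the 20 mice, Spc24 passed in 20 of 20, with adjusted p from 5.02e-05 to 0.00601 (edgeR). Without batch D it did not pass (log2 fold change -0.42, adjusted p = 0.459), nor with counts summed per batch (adjusted p = 0.0971).

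Smc1a, a subunit of the cohesin ring, had a mean of 123 ± 12.5 CPM with human microbiota and 152 ± 13.1 CPM with squirrel monkey microbiota (log2 fold change -0.30 ± 0.06 SE, adjusted p = 0.0382, edgeR). Pcm1, a scaffold of the satellites around the centrosome, had 88.7 ± 11.9 against 113 ± 6.62 CPM (log2 fold change -0.35 ± 0.07 SE, adjusted p = 0.0382). Its human range of 68.5 to 111 CPM entered the squirrel monkey range of 107 to 128 CPM with a single mouse, since 11 of 12 human mice lay below the lowest squirrel monkey mouse. Scaper, named for its association with cyclin A in the endoplasmic reticulum, had 98.2 ± 12.8 against 126 ± 14.1 CPM (log2 fold change -0.36 ± 0.08 SE, adjusted p = 0.0482).

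Atrx is a remodeller of the SWI/SNF type that, with Daxx, deposits histone H3.3 at repeats and telomeres. It ran from 382 through a median of 441 to 497 CPM with human microbiota and from 508 through 539 to 606 CPM with squirrel monkey microbiota. No mouse of one group lay within the range of the other, and of all genes tested Atrx was the 1 gene (0.0079%) for which this held. The means were 446 ± 35.3 CPM (SD, n = 12) and 547 ± 32.9 CPM (SD, n = 8), and their log2 difference was -0.29 ± 0.05 SE (edgeR adjusted p = 0.00533).

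Macaque mice had 501 to 613 CPM of Atrx, also above the human range. Atrx passed in each of the 20 fits that left out 1 mouse, with adjusted p from 0.00241 to 0.0433 (edgeR). It did not pass without batch A (adjusted p = 0.108), without batch D (0.459), with counts summed per batch (0.190), with the log2 library total as a covariate (0.0707), with all genes of at least 1 count tested (0.0602) or after trends on GC content and transcript length were taken out (0.138).

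Psip1 encodes LEDGF, a reader of methylated histone H3. Its mean was 365 ± 38.2 CPM with human and 452 ± 48.6 CPM with squirrel monkey microbiota (log2 fold change -0.31 ± 0.07 SE, adjusted p = 0.0382, edgeR). Ncl encodes nucleolin, an abundant protein of the nucleolus that acts in ribosome production, and had 333 ± 35.8 against 407 ± 33.4 CPM (log2 fold change -0.29 ± 0.06 SE, adjusted p = 0.0348). Unlike Atrx and Spc24, Ncl had a macaque mean close to the human one, at 349 ± 23.8 CPM (SD, n = 12). Bclaf1, which acts in transcription and splicing, had 262 ± 12.8 against 306 ± 25.3 CPM (log2 fold change -0.23 ± 0.05 SE, adjusted p = 0.0442). Zfp316, a zinc finger gene, had 76.7 ± 12.5 against 102 ± 14.1 CPM (log2 fold change -0.42 ± 0.09 SE, adjusted p = 0.0348).

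Dlgap2, a scaffold of the postsynaptic density that binds PSD-95, had 50.4 ± 5.87 against 64.5 ± 6.28 CPM (log2 fold change -0.36 ± 0.08 SE, adjusted p = 0.0445, edgeR). Ip6k2, a kinase that makes inositol pyrophosphates, had 53.0 ± 5.69 against 69.7 ± 7.59 CPM (-0.40 ± 0.09 SE on the log2 scale, adjusted p = 0.0442).

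Herc1, a very large ubiquitin ligase, had 149 ± 9.57 against 184 ± 14.1 CPM (log2 fold change -0.30 ± 0.06 SE, adjusted p = 0.0348, edgeR). Golgb1 encodes giantin, a tether of Golgi membranes, and had 109 ± 13.2 against 138 ± 13.3 CPM (-0.35 ± 0.07 SE on the log2 scale, adjusted p = 0.0348). Eef1akmt3, which methylates a lysine of elongation factor eEF1A, had 63.0 ± 8.83 against 86.7 ± 14.2 CPM (-0.47 ± 0.10 SE on the log2 scale, adjusted p = 0.0348). In all 15 lower genes every human mouse lay below the squirrel monkey median, which the choice of genes on these same values favours. The macaque mean lay between the human and squirrel monkey means in 9 of the 15 and above the squirrel monkey mean in 6. Choosing genes by a human against squirrel monkey difference favours a macaque mean on the squirrel monkey side of the human mean. The share over all genes was not computed, and the same limit holds for macaque values beside single called genes above.

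**Figure D2:**
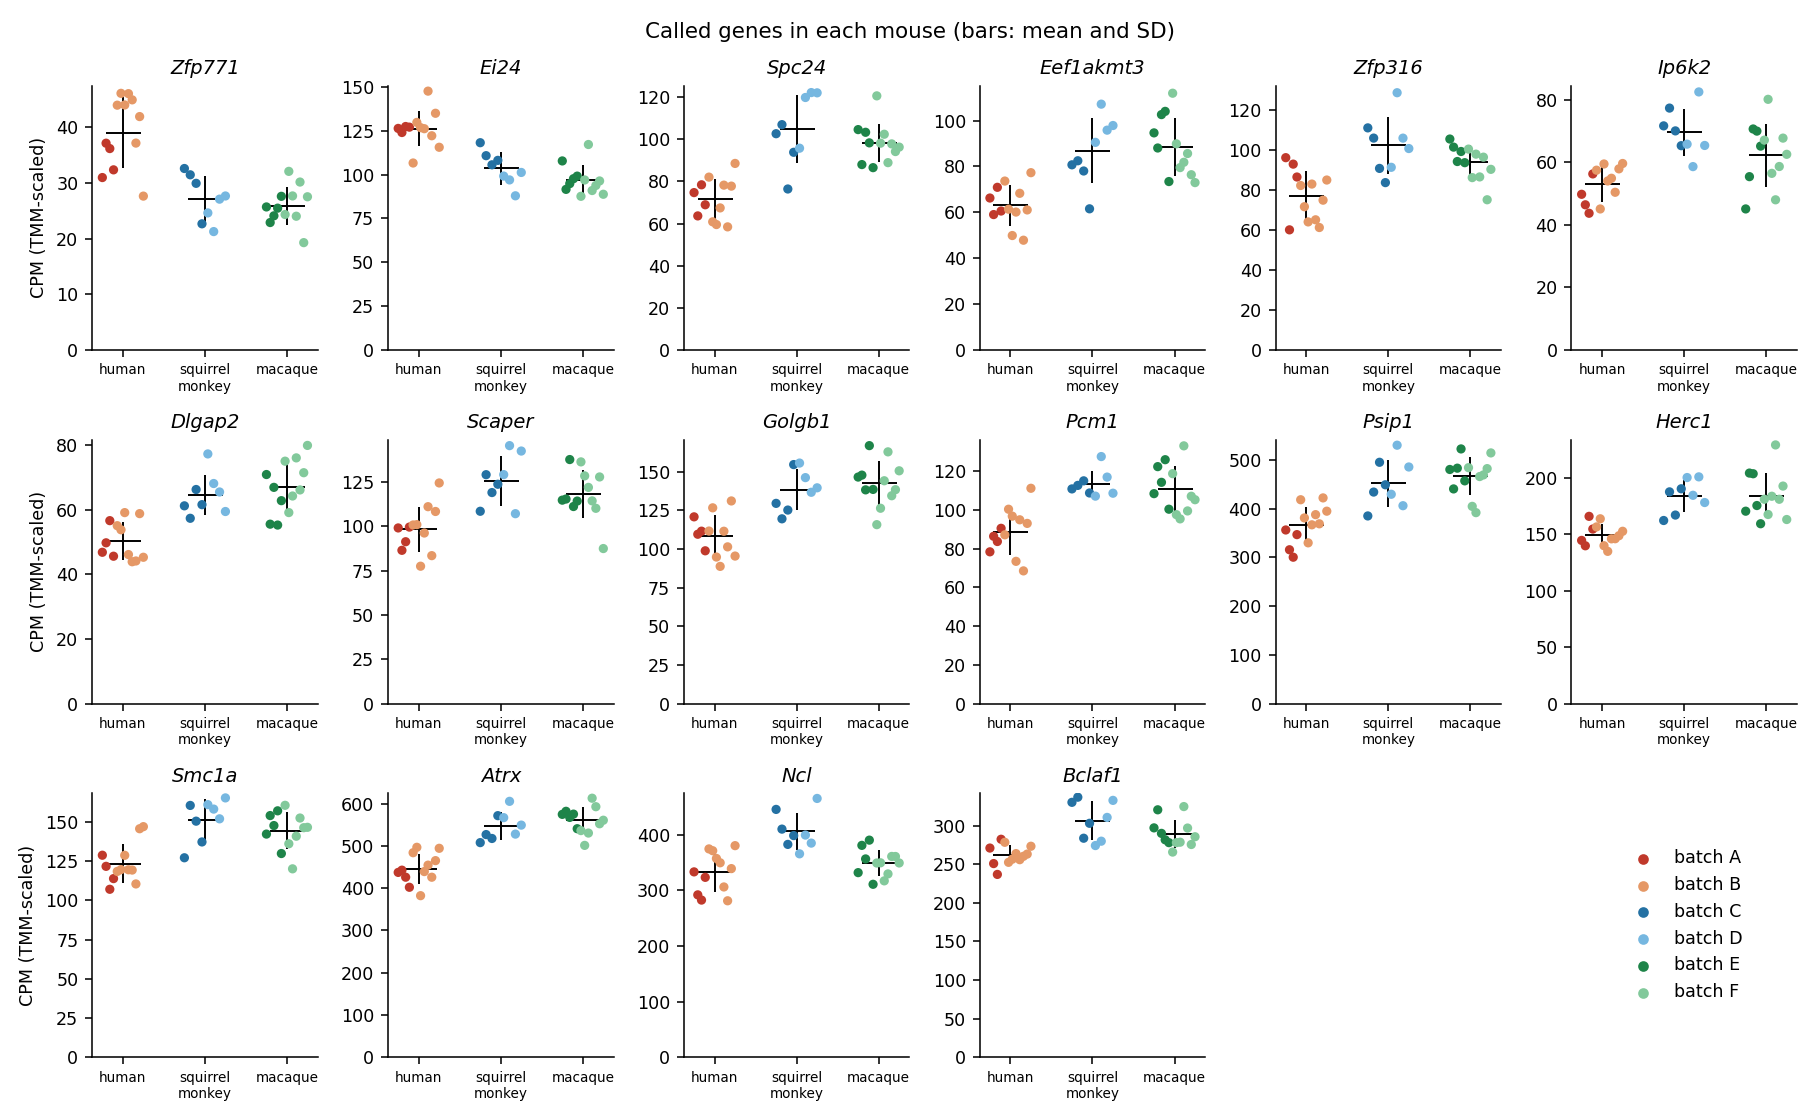
Level of 16 of the 17 called genes in CPM after TMM scaling (y axis, from 0) in every mouse of the human, squirrel monkey and macaque groups, coloured by batch, with mean and SD as bars. Atrx is the panel in which the human mice (382 to 497 CPM) and the squirrel monkey mice (508 to 606 CPM) do not overlap.

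For 10 of the 17 genes the annotation (GENCODE M21) has another gene on the opposite strand within the same span, among them Ei24, Eef1akmt3, Ip6k2, Dlgap2, Golgb1, Psip1, Herc1, Smc1a and Atrx. The sources used here do not say whether counting used strand, so counts of these genes may include reads of the partner. The same limit holds for Fxr2, Stk32c, Syngr1, Ap2a1, Rpl31, Psmd13, Pcsk1n, Cux2, Jun, Txnip, Cx3cr1, Slc2a1, Syn1, Smarcd3, Suz12 and Mbp. None of the 17 had a copy among other GENCODE transcripts that matched its last 300 bases over at least 100 bases at 95% identity.

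Upstream sequence is shown for Zfp771 and Atrx, a gene of each direction, since the annotated promoters of these 2 genes differ strongly in base content. The 250 bases before the transcription start are from RefSeq (GRCm38.p6, another build than that of the counts). Zfp771 lies on the + strand at chr7:127244276-127244525 and Atrx on the - strand at chrX:105929373-105929622. Both are written 5′ to 3′ in the direction of transcription, and capitals mark the GC box (GGGCGG) and the CCAAT box (CCAAT) on either strand.
Zfp771: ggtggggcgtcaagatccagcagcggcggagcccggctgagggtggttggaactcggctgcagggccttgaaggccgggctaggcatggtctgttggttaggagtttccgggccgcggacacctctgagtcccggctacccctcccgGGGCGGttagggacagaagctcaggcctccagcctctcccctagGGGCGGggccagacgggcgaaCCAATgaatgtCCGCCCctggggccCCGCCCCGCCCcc
Atrx: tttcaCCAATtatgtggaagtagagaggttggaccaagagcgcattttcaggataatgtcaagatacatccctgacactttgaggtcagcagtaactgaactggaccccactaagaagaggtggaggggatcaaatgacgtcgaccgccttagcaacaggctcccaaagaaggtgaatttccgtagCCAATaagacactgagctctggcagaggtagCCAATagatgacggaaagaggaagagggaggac

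The Zfp771 window was 70.4% G and C and held 5 GC boxes and 1 CCAAT box, while the Atrx window was 48.4% G and C and held no GC box and 3 CCAAT boxes. This pair was chosen for its contrast and does not stand for the 2 directions. The lower genes Ncl and Ip6k2 had 69.6% and 66.4%, above the higher gene Ei24 at 63.2%. The lower genes Zfp316 and Smc1a had 61.6% and 56.8%. The median was 64% over the called genes with a window and 60% over all windows. A promoter entry was found for 10 of the 17 called genes and for 9839 genes tested, and the first listed start of each was used. A GC box was present in 8 of the 10 and in 58.0% of all 9839 windows. A CCAAT box was present in 4 of the 10 (Atrx, Ip6k2, Smc1a and Zfp771) and in 36% of all windows. Of the other motifs searched on both strands, TATAAA was in 0 of the 10 and 7.09% of all, TGACGTCA in 0 and 2.84%, and CACGTG in 1 (Scaper) and 8.19%. These matches describe the letters of the windows alone.

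Batches of a single donor species also differed. Between human batches A and B, 3 genes passed (0.0237%): Fscn1, an actin-bundling protein (log2 fold change -0.48 ± 0.08 SE, adjusted p = 0.0106), Eif5a, a translation factor (-0.47 ± 0.09 SE, adjusted p = 0.0413), and Ap2a1, a subunit of the AP-2 clathrin adaptor (-0.89 ± 0.17 SE, adjusted p = 0.0413, all edgeR). All 3 were lower in batch A, and none was among the 17. Leaving out 1 human mouse gave 0 to 5 calls: 0 without replicate 1, 3 or 4, Fscn1 alone without 2, 7, 9, 10 or 11, and 5 without replicate 5. Between squirrel monkey batches C and D edgeR called 0 genes (0.0%) and DESeq2 also 0, with 883 genes at an unadjusted p under 0.05. Between A and B that number was 1473, more than the 1267 between the donor groups.

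The median absolute log2 difference over all genes was 0.142 between A and B and 0.137 between C and D, both larger than the 0.0997 between donors, in groups of fewer mice. The 17 called genes were chosen for a donor difference that is large against the spread within groups, which includes these batch differences. Their donor and batch differences are therefore no comparison of independent values. In all 17 the means of batches A and B lay on one side of the means of C and D. This held for 4330 genes in all (34.2%), and among the 17 the choice of genes favours it.

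Within donor groups, 3 of the 17 genes had an unadjusted p under 0.05 between A and B (Zfp771, Psip1 and Ncl) and 4 between C and D (Ei24, Spc24 and Eef1akmt3 among them). Over all 12651 genes tested, these numbers were 1473 and 883. Spc24 had batch means of 71.4 and 71.6 CPM in A and B, and of 95 and 115 CPM in C and D. Eef1akmt3 had 64.1 and 62.4 CPM in A and B, and 75.7 and 97.8 CPM in C and D. Of the 15 lower genes, 12 were lower in batch C than in batch D, so that batch D lay farther from the human mice. The share of all genes lower in C than in D was not computed. The leave-out of batch D is the one that left none of the 17 called, with 1 other gene passing (Erlec1, chosen after its values were seen).

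**Figure D3:**
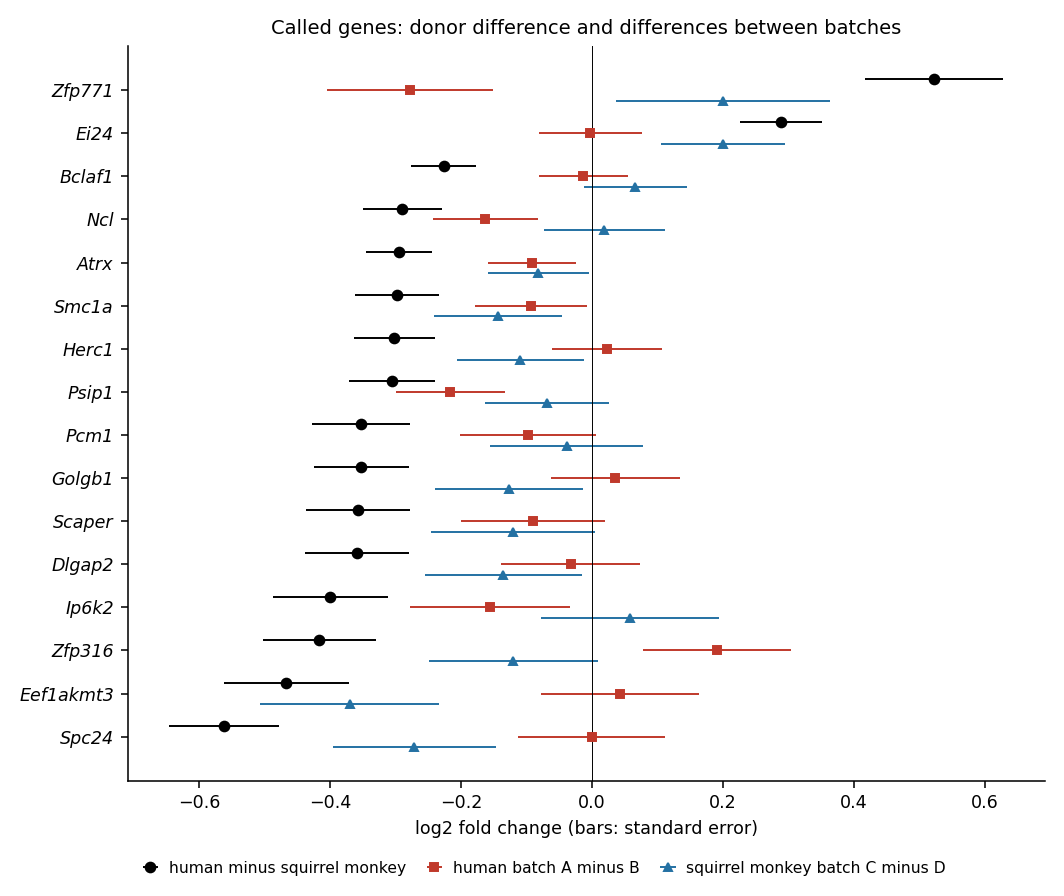
Log2 fold changes with standard errors (x axis) of 16 of the 17 called genes for the donor comparison (black circles), human batch A minus B (red squares) and squirrel monkey batch C minus D (blue triangles). The genes were chosen for their donor difference. Eef1akmt3 and Spc24 show the largest C minus D differences among the lower genes shown.

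Gene groups of the cortex were then read from 44 lists of pathways, complexes and cell type markers. A called gene was found in 2 lists, Dlgap2 in postsynaptic scaffold and adhesion genes and Herc1 in schizophrenia risk genes, and in the other 42 edgeR called 0 members. The list medians of the log2 fold change stand below beside the median of 0.0089 over all genes tested, and counts at an unadjusted p under 0.05 beside the 10% over all genes. Counts of members with a fold change above or below 0 stand beside 6631 genes above and 6020 below 0 of the 12651 tested.

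More ribosomal protein genes were higher than lower at an unadjusted p under 0.05. Of 46 large ribosomal subunit proteins, 11 were higher and 2 lower at an unadjusted p under 0.05, and DESeq2 called 3 (Rpl11, Rpl31 and Rplp1). Of 32 small subunit proteins, 8 were higher and 0 lower at that p, and DESeq2 called 2 (Rpsa and Rps20). The medians were 0.073 and 0.074. Squirrel monkey batches C and D also differed in these genes, though none passed adjustment. C minus D was 0.63 for Rps20, 0.41 for Rpl31, 0.31 for Rpsa and 0.27 for Rplp1 on the log2 scale. Their donor differences were 0.42, 0.37, 0.40 and 0.29, in the same order. Between human batches, A minus B ran from -0.07 (Rplp1) to 0.22 (Rps20). Rplp1, a protein of the ribosomal stalk, had 763 ± 70.9 against 626 ± 99.4 CPM (log2 fold change 0.29 ± 0.07 SE, adjusted p = 0.0610, edgeR), and parts of its 3′ end match 3 other GENCODE genes, so its counts may be shared.

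Rpsa, a protein of the small subunit, had 203 ± 41.8 against 155 ± 33.8 CPM (adjusted p = 0.139, edgeR). Summed over the large subunit list the groups did not stand apart, with medians of 12809 CPM in the human and 12925 CPM in the squirrel monkey group. Among 26 translation factors, 5 were higher and 2 lower at an unadjusted p under 0.05. Eef2, which moves the ribosome along the message, had 376 ± 33.5 against 317 ± 29.3 CPM (log2 fold change 0.25 ± 0.06 SE, adjusted p = 0.0629), and the helicase Eif4a1 had 295 ± 26.5 against 242 ± 34.9 CPM (0.29 ± 0.07 SE, adjusted p = 0.0867). In DESeq2, Eef2, Eif4a1 and Eif3a passed, the last of them lower.

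Energy and protein turnover genes showed medians near that of all genes. The list median was 0.026 for 37 subunits of respiratory complex I, 0.0046 for 35 subunits of complexes III to V, 0.014 for 34 enzymes of glycolysis and the TCA cycle, 0.021 for 39 mitochondrial ribosomal proteins, -0.033 for 31 proteasome subunits, -0.0069 for 33 chaperones and -0.045 for 23 enzymes of cholesterol synthesis. Psmd13, a proteasome lid subunit, had 26.3 ± 8.97 against 17.8 ± 4.02 CPM (adjusted p = 0.194, edgeR). Hspa8, the constitutive Hsc70 chaperone, had 483 ± 126 against 346 ± 113 CPM (adjusted p = 0.181), and its 3′ end matches 7 pseudogenes. Between C and D, Hspa8 was 1 of 3 genes called when only the mice of these 2 batches were fitted.

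In edgeR no receptor or channel gene was called, and DESeq2 called Kcnd2. The medians were -0.054 for 18 AMPA, NMDA and kainate receptor subunits, 0.051 for 10 metabotropic glutamate receptor genes, -0.024 for 16 GABA receptor subunits and 0.060 for 16 monoamine and acetylcholine receptors. For 23 sodium and calcium channel genes the median was 0.083, and for 41 potassium, HCN and TRPC channel genes 0.015. Kcnd2, an A-type potassium channel, had 93.1 ± 12.8 against 114 ± 8.21 CPM (log2 fold change -0.30 ± 0.08 SE, adjusted p = 0.139 in edgeR, passing in DESeq2). Grin3a, an NMDA receptor subunit, had 49.7 ± 9.13 against 40.1 ± 7.81 CPM (adjusted p = 0.319).

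Of 36 genes of the synaptic vesicle and its release, 1 was higher and 3 lower at an unadjusted p under 0.05, with a median of 0.0080. Nsf, the ATPase that takes SNARE complexes apart, had 530 ± 32.9 against 597 ± 42.8 CPM (log2 fold change -0.17 ± 0.05 SE, adjusted p = 0.175 in edgeR, passing in DESeq2). Slc17a7, the vesicular glutamate transporter VGLUT1, had 473 ± 53.6 against 400 ± 39.7 CPM (adjusted p = 0.205). Syn1, which encodes synapsin I, had 2 separate levels: it was under 50 CPM in 6 of 12 human mice, 1 of 8 squirrel monkey mice and 12 of 12 macaque mice, and over 268 CPM in the other mice. Its donor difference did not pass (log2 fold change -0.62 ± 0.54 SE, adjusted p = 0.765).

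Among 32 postsynaptic scaffold and adhesion genes Dlgap2 passed and the list median was 0.036, and DESeq2 also called Dlg4, which encodes PSD-95, as higher. The median was -0.0048 for 23 neuropeptide and granin genes, 0.042 for 8 neurotrophin and Trk receptor genes and 0.012 for 21 markers of inhibitory interneurons. Pcsk1n, the precursor proSAAS, had 296 ± 93.3 against 389 ± 72.9 CPM (edgeR adjusted p = 0.412). Its donor difference was -0.39 on the log2 scale, and A minus B was -0.70 without passing adjustment.

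The markers of cortical layers had medians of opposite sign. Of 20 upper layer markers, 17 had a fold change above 0, with a median of 0.178, and none had an unadjusted p under 0.05. Of 23 deep layer markers, 16 had a fold change below 0, with a median of -0.170, and 2 were lower at that p. Fezf2, a factor of subcerebral projection neurons, had 115 ± 33.1 CPM with human and 160 ± 33.5 CPM with squirrel monkey microbiota (log2 fold change -0.47 ± 0.15 SE, adjusted p = 0.205, edgeR). Etv1, a marker of layer V, had 136 ± 24.5 against 168 ± 23.8 CPM (adjusted p = 0.258), while Cux2, a marker of the upper layers, had 56.8 ± 26.5 against 43.2 ± 12.9 CPM (adjusted p = 0.585). Whether the piece of cortex taken differed in depth between the groups was not tested.

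Glucocorticoid-responsive genes and early genes had negative medians. Of 21 glucocorticoid-responsive genes 17 had a fold change below 0, with a median of -0.209, and 4 were lower and 0 higher at an unadjusted p under 0.05. Txnip, an arrestin that limits glucose uptake, had 21.7 ± 10.4 against 38.2 ± 16.2 CPM (log2 fold change -0.81 ± 0.25 SE, adjusted p = 0.181, edgeR). Tsc22d3, which encodes GILZ, had 97.4 ± 20.04 against 123 ± 31.6 CPM (adjusted p = 0.425). Of 28 activity-dependent early genes 20 had a fold change below 0, with a median of -0.147, and 1 had an unadjusted p under 0.05 (Jun, 59.5 ± 17.7 against 79.5 ± 17.3 CPM, adjusted p = 0.477). The circadian clock list (21 genes) had a median of 0.044.

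In edgeR no glial or vascular marker was called, and DESeq2 called Bsg. Of 32 oligodendrocyte and myelin genes 29 had a fold change above 0, with a median of 0.177, yet none had an unadjusted p under 0.05. The summed myelin level overlapped widely between the groups, and its median was 2257 CPM in the human and 3106 CPM in the squirrel monkey group, the opposite order to the fold changes. The mean of the summed level was 4349 ± 4299 CPM in the human and 3952 ± 2414 CPM in the squirrel monkey group, the order of the fold changes. Without the 5 mice of highest myelin level (3 human and 2 squirrel monkey), 39 genes passed, 27 higher and 12 lower, and 11 of the 17 were among them. Mbp, the myelin basic protein gene, had 950 ± 1044 against 853 ± 612 CPM.

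Of 23 microglia and complement genes 5 were higher and 0 lower at an unadjusted p under 0.05, with a median of 0.065. Cx3cr1, the fractalkine receptor of microglia, had 74.4 ± 10.4 against 60.8 ± 12.5 CPM (log2 fold change 0.30 ± 0.10 SE, adjusted p = 0.244, edgeR). The median was 0.0079 for 28 astrocyte markers, 0.089 for 14 oligodendrocyte precursor markers and 0.017 for 17 interferon response and MHC class I genes. Among 25 endothelial genes, Bsg had 417 ± 30.6 against 357 ± 46.2 CPM (adjusted p = 0.157 in edgeR, passing in DESeq2) and Slc2a1, the glucose transporter GLUT1, had 80.7 ± 19.7 against 114 ± 30.5 CPM (adjusted p = 0.183).

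Markers of neighbouring tissue were checked because a dissection can include some of it. Of 12 striatal markers 3 were higher and 0 lower at an unadjusted p under 0.05, with a median of 0.135. Their summed level was 467 to 1335 CPM in the human and 464 to 585 CPM in the squirrel monkey group, and 1 human mouse held the highest value. Without that mouse 14 genes passed, 13 of them among the 17. The median was 0.0029 for 9 olfactory and septal markers, 0.189 for 10 retrosplenial and hippocampal markers, -0.061 for 5 choroid plexus and ependymal genes, 0.086 for 13 pericyte and smooth muscle genes, 0.050 for 14 meningeal genes and -0.300 for 6 red cell genes. Ttr, the defining choroid plexus gene, averaged 10.03 ± 21.7 and 8.78 ± 19.2 CPM, and the part of such neighbouring tissue in the 17 calls was not tested beyond these values.

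Genes linked to neurodevelopment and disease had medians of -0.0045 (56 autism risk genes), -0.059 (31 schizophrenia risk genes), 0.021 (29 chromatin regulators), -0.013 (34 axon guidance genes) and 0.029 (27 insulin and growth signalling genes). Of the schizophrenia risk genes, 2 were higher and 4 lower at an unadjusted p under 0.05, Herc1 among the latter. Of the chromatin regulators, 3 were higher and 3 lower at that p (20.7%). The called genes Atrx and Smc1a are not members of the chromatin regulator list. Smarcd3, a subunit of the neuronal BAF remodelling complex, had 21.4 ± 10.1 against 34.7 ± 9.51 CPM (-0.69 ± 0.21 SE on the log2 scale, edgeR adjusted p = 0.184). Its batches also differed within a donor species, with A minus B at -1.20 and C minus D at -0.64, though neither passed adjustment. Batch means of Smarcd3 were 11.4 and 26.4 CPM in A and B, and 27.1 and 42.3 CPM in C and D. Suz12, a subunit of Polycomb complex 2, had 47.5 ± 7.33 against 57.4 ± 4.34 CPM (edgeR adjusted p = 0.190).

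**Figure D4:**
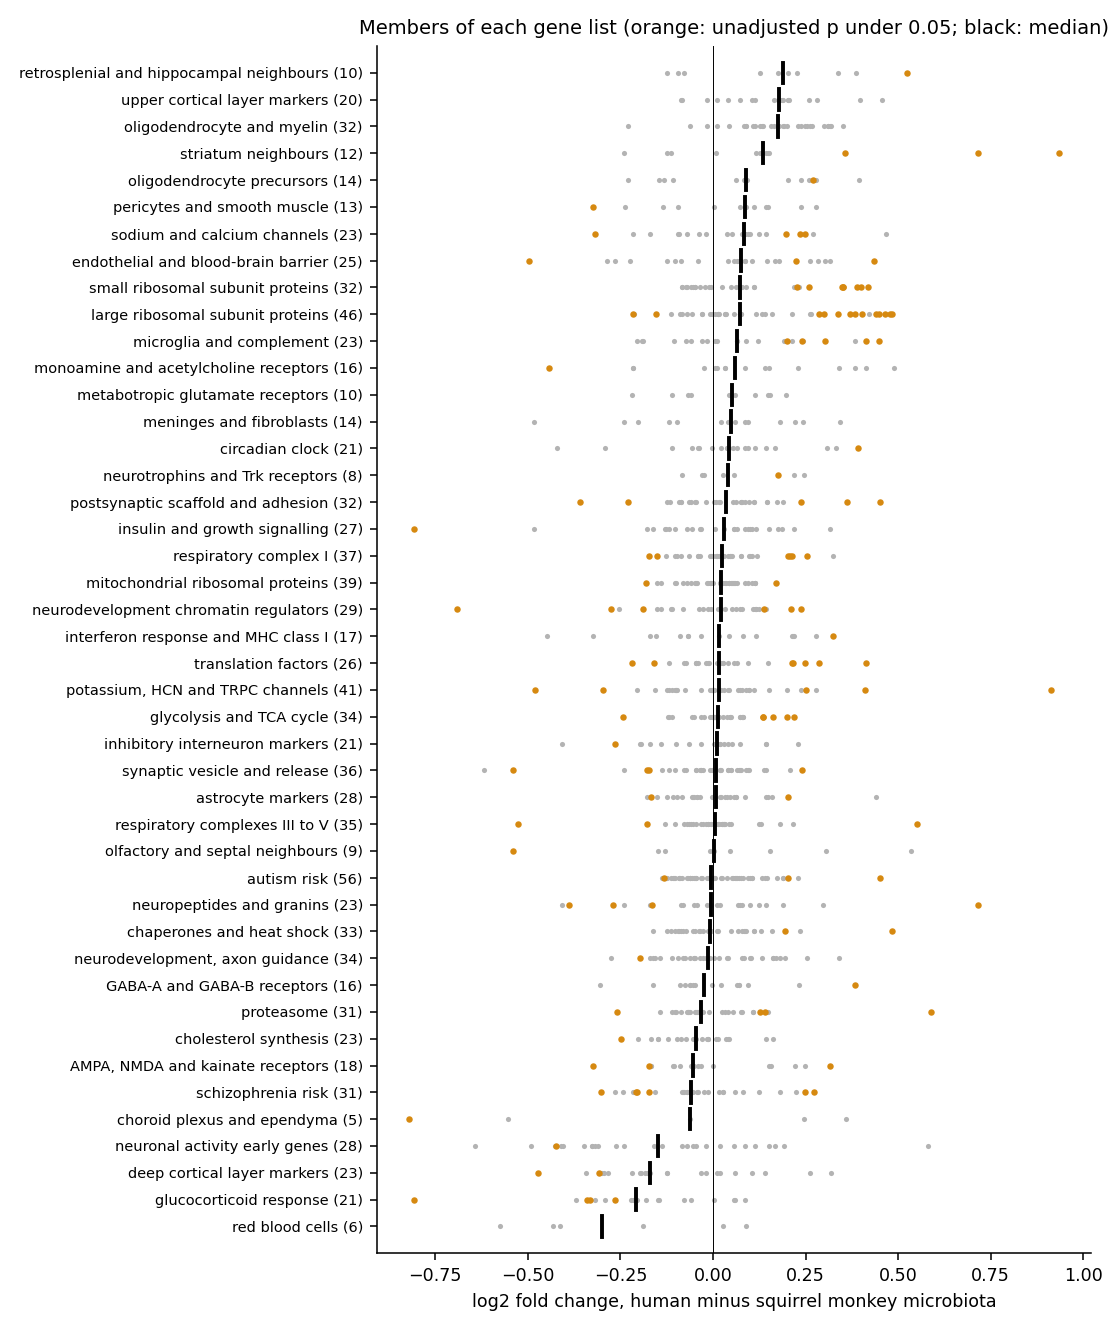
Log2 fold change, human minus squirrel monkey (x axis), of each measured member of the 44 lists (rows, with the number of members), ordered by list median (black bar). Orange points have an unadjusted p under 0.05; ribosomal lists hold many of them on the right, while glucocorticoid-responsive and deep layer lists have medians of -0.209 and -0.170.

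Transcript length and GC content were set beside the calls. The 15 lower genes had a median longest transcript of 5231 bases, against 3662 over 12644 genes, and 11 of the 15 were longer than that median. Their median GC content was 47.03%, against 49.04% over all, and 8 of the 15 lay under that value. The GC pattern was clearer among genes at an unadjusted p under 0.05 (edgeR) with known length and GC content. Of those lower with human microbiota, 450 of 603 lay under the median GC content (their median 44.82%). Of those higher, 226 of 663 did (their median 52.3%). The length pattern was not clearer among these genes. Longer than the median transcript were 330 of the 603 lower genes (their median 3867 bases) and 333 of the 663 higher genes (3679 bases). Across genes, which are not independent replicates, Spearman's rho of the fold change was 0.168 with GC content and 0.023 with length. Per mouse, the slope of expression on GC content had a median of 0.030 in the human group and -0.0039 in the squirrel monkey group (log2 units per 10 percentage points of GC), with ranges that overlapped. The human batches split: the mean slope was -0.0236 in A and 0.0448 in B, against -0.0037 in C and -0.0332 in D. Batch A thus lay between the squirrel monkey batches. With the trend on both removed, 10 genes passed, 9 of them among the 17.

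The number of calls moved strongly with the mice and the model used. In the 20 fits that left out 1 mouse, it ran from 2 to 67 with a median of 7, and Atrx and Spc24 were the 2 genes called in all 20. Without human replicate 12, 67 genes passed, and without human replicate 2, 9 or 10 or squirrel monkey replicate 5, 6 or 7 the calls were Atrx and Spc24 alone. The count also moved by more than 1.5 times without human replicate 1 (7), 3 (8) or 11 (29) and without squirrel monkey replicate 1 (30), 2 (6), 3 (11), 4 (6) or 8 (3). With the log2 library total as a covariate Spc24 alone passed (log2 fold change -0.49, adjusted p = 0.0197, edgeR). None of the 17 genes changed sign in any fit, which their choice for a large difference in these same mice favours.

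**Figure D5:**
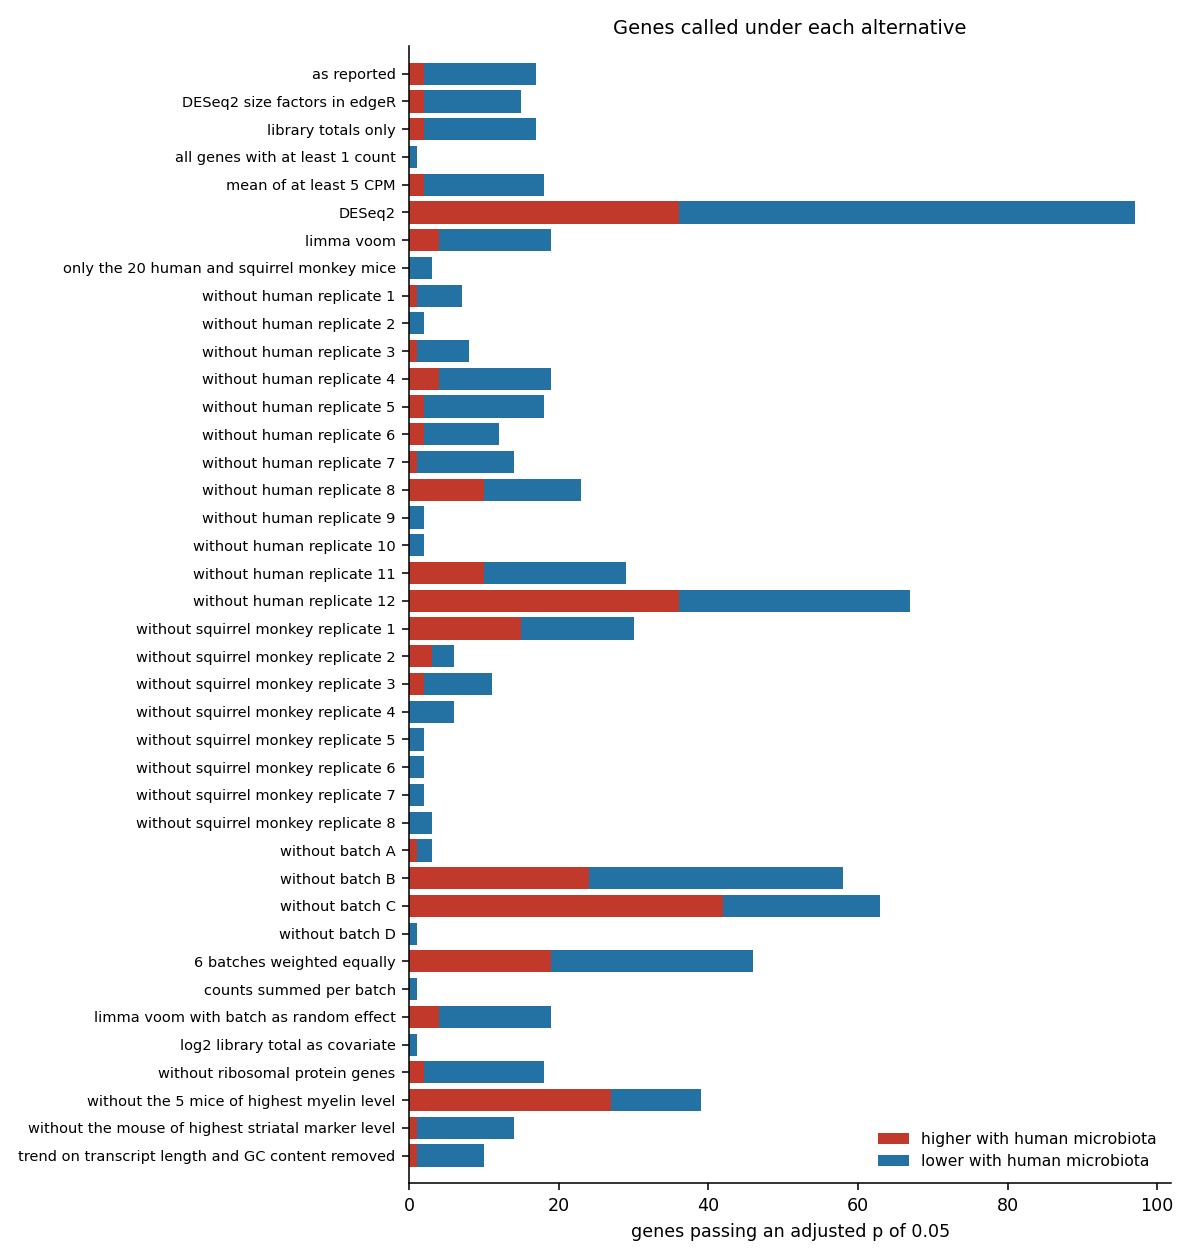
Number of genes passing an adjusted p of 0.05 (x axis) in the comparison as reported and under each alternative (rows), split into genes higher (red) and lower (blue) with human microbiota. Counts run from 1 to 97, and leaving out single mice gives 2 to 67.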

How the data were processed

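Per the labels' protocols, RNA from the frontal cortex of 32 mice was measured by TagSeq on a NovaSeq. The authors deposited 1 table of raw counts per gene with 23958 rows, and no value in it was normalized. GRCm39 is named in the submitters' processing notes. The sources used here do not give the aligner, the annotation, the use of strand or the handling of duplicates. A further 3 count columns matched no sample and were left out. Symbols came from a gene name table, and the 76 rows without one held 0.031% of counts.

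Counts were fitted with edgeR 4.0.16 in R 4.3.3. The filter filterByExpr (minimum count 10, minimum total 15) left 12651 genes, scaled by TMM (factors 0.955 to 1.04). The quasi-likelihood test used all 32 mice with donor group as the only term, so macaque mice add to the estimate of spread (29 residual degrees of freedom), and p-values were adjusted by Benjamini-Hochberg. A 5 CPM level equals about 7.73 counts at median depth. A fit on 6 batches gave the differences between batches. Levels are TMM-scaled CPM, and a log2 fold change is human minus squirrel monkey. Library measures used two-sided exact permutation tests. The code was tested on simulated data. DESeq2 1.42.0, limma 3.58.1 with voom, other scalings, filters and covariates, and leaving out mice or batches were alternatives. Comparing mice of the same donor species, 0 of 94 pairs held identical counts.

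Called genes are named by rule: up to 12 in each direction by fold change among those with at least 5 CPM, filled to 10 with genes of smallest p that did not pass. Atrx, Ncl and Bclaf1 are called genes beyond the 12 lower ones and were named after their values were seen, as were genes named from DESeq2 or from counts of 5 or fewer under an alternative. Each list gives its called members or its 2 members of smallest p, of which some are described. The members and lists were chosen with earlier results of these data known. Lists held 1167 entries, of which 1163 matched. Some genes taken by these rules are not reported here.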

Additional observations from a re-analysis of the deposited data

Results flagged for a closer look

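The share of all counts taken by the 100 most abundant genes was low in a single squirrel monkey mouse. It had 15.7%, against 16.8% in the next lowest of the 8 mice, so that the gap made up 0.581 of the range of that group. This is 1 of 62 groups of values checked in this way, and chance gives such a gap in about 1 of 20. The human mice spanned 15.5% to 17.8%, which includes that value.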

How the results depend on the processing

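Against the 17 calls, 15 to 19 remained in number with DESeq2 size factors, library totals, a 5 CPM filter, limma voom, voom with batch as a random effect (correlation 0.0053) and ribosomal genes left out, and 14 without the human mouse of highest striatal markers. The number moved to 1 with all genes of at least 1 count (Spc24), 97 with DESeq2, 3 with the 20 mice alone (Spc24, Atrx, Herc1), 3 without batch A (Spc24, Zfp316, Zfp771), 58 without B, 63 without C, 1 without D (Erlec1), 46 with batches weighted equally, 1 with counts summed per batch (Mt3, not among the 17), 1 with the log2 library total as covariate (Spc24), and, chosen after seeing the data, 39 without the 5 mice of highest myelin level and 10 without the length and GC trend. Leaving out 1 mouse gave 2 to 67. The human batch A to B count of 3 became 0 with library totals, 10 with DESeq2, 0 with those mice alone and 0 to 5 leaving out 1 mouse; it was 0 without human replicate 1, 3 or 4. The C to D count of 0 became 3 with those mice alone (Hspa8 and 2 unnamed models) and stayed 0 leaving out 1 mouse. The cause of these moves was not tested. Of the 17 called genes and the 8 higher genes that did not pass, none changed sign, which their choice from these same mice favours. Of their 968 values under alternatives, 624 kept their side of the threshold, 300 lost it and 44 gained it. No paired analysis was possible because the mice of the groups are different animals in batches nested within donor species, and the labels give no numbers shared across groups. With 1193113 to 2089308 counts per mouse, changes in genes that failed the minimum count of 10 were not tested.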
